A study of Mus musculus with 4 samples.

Results

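A set of 9 genes that encode transcription factors of the neural crest and facial mesenchyme was examined for open chromatin in the facial surface ectoderm, the epithelial sheet that lies over that mesenchyme. They are Sox10, Twist1, Prrx1, Prrx2, Alx1, Alx4, Pax3, Snai2 and Zeb2. A peak was counted for a gene when its centre lay within 100 kb of the start site of the gene's principal transcript, and 91 of 65467 control ATAC-seq peaks and 4 of 3103 AP-2-dependent regions met this rule. No peak was counted for more than 1 of the 9 genes. ATAC-seq cuts accessible DNA with a transposase, so that a peak marks chromatin that is open in at least some of the cells. The outermost peak inside the limit lay 98.9 kb from Snai2, and the nearest peak beyond it lay 101 kb from Prrx2.

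Facial prominence ectoderm of mouse embryos at E11.5 was profiled in 4 libraries, 2 from controls and 2 from EDKO embryos. EDKO embryos carried Crect and were homozygous for floxed alleles of both target genes (Tfap2a flox/flox and Tfap2b flox/flox) and thus lost AP-2α and AP-2β, the related transcription factors encoded by Tfap2a and Tfap2b, in the ectoderm. Controls were littermates without Crect that were Tfap2a flox/+; Tfap2b flox/+, so they also carried a floxed allele of each gene. Crect is a Cre transgene driven by an enhancer of Tfap2a that acts in early surface ectoderm, and it was passed on by the sire because wider recombination has been seen with it. The ectoderm was freed from the mesenchyme with Dispase II and fine dissection, with no sort for cell type. The control peaks come from both control libraries called together, and the AP-2-dependent regions from the control libraries set against the EDKO libraries, so they are places where the control signal was higher. Neither list holds a value for a single library or a read count. The depth behind a peak and the spread between libraries are therefore unknown, no difference carries a test, and intervals on shares cover counting error only. All values were pooled by the authors in this way, and values of the control peaks and of the regions are not set against each other.

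Neural crest cells leave the border of the neural plate by an epithelial-to-mesenchymal transition, in which they give up E-cadherin contacts and migrate, and in the face they form most of the mesenchyme. Snai2 and Zeb2 encode zinc finger repressors of epithelial genes, and Twist1 a basic helix-loop-helix factor, that act in this transition. Pax3 and Sox10 mark the crest itself and its glial and melanocyte branches, while the homeobox genes Prrx1, Prrx2, Alx1 and Alx4 are used later, in the mesenchyme of the prominences. AP-2 proteins bind a palindrome close to GCCNNNGGC and act both in crest and in ectoderm.

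The 4 AP-2-dependent regions near these genes are shown first, because they carry every loss of accessibility that was called within 100 kb of the 9 start sites. They are read from GRCm38 on the plus strand, in lower case, with matches to GCCNNNGGC and to the E-box CAGGTG, a site of Snai and Zeb proteins, in capitals. The first lies upstream of Prrx1 at chr1:163383414-163383705, the second in intron 1 of Alx4 at chr2:93649555-93649794, and the other two in intron 2 of Zeb2, of which 300 bases each are shown, chr2:45102300-45102599 and chr2:45103255-45103554.
Prrx1 upstream: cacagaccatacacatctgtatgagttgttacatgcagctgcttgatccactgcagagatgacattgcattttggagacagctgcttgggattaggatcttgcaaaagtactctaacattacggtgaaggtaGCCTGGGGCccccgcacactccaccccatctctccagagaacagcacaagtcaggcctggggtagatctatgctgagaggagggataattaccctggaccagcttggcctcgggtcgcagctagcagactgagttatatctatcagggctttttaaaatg
Alx4 intron 1: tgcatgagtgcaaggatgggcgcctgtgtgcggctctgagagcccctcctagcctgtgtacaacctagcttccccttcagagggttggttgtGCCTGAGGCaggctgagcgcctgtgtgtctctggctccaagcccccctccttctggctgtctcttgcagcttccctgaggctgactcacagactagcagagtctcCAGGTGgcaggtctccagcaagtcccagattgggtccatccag
Zeb2 intron 2, first: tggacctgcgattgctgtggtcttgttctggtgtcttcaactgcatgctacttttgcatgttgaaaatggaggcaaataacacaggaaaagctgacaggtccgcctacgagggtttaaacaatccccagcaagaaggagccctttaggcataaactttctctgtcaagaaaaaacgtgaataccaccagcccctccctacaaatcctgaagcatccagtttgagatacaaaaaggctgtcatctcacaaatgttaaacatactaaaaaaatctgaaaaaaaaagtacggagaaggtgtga
Zeb2 intron 2, second: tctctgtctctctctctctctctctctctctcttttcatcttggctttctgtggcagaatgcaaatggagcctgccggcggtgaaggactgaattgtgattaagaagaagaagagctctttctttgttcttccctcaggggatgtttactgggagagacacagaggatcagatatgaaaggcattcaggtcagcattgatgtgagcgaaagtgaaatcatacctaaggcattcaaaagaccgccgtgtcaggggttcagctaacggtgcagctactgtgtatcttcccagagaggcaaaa
The Prrx1 and Alx4 regions each held 1 AP-2 string, and the Alx4 region also held 1 E-box. Neither Zeb2 region held either string over its full width.

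Summit windows of the control peaks at Snai2 and Sox10 are shown next, because these were the strongest and the weakest of the 9 start-site peaks. Each has 101 bases on the strand of the gene, at chr16:14705779-14705879 on the plus strand for Snai2 and at chr15:79163830-79163930 on the minus strand for Sox10. Neither window holds GCCNNNGGC or CAGGTG, but within 100 bp of the summit, the distance used for the counts of strings, both peaks hold CAGGTG.
Snai2 start site: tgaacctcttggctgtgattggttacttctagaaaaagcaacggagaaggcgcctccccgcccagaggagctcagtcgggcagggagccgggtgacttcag
Sox10 intron 1: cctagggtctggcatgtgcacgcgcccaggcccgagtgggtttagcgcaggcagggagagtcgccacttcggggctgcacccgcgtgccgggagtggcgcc

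Every one of the 9 genes had a start-site peak, meaning a control peak that overlapped the window of 1 kb on either side of its start site. Of these 9 peaks, 8 lay below the lower quartile of start-site peaks over all protein-coding genes. Where a gene had several such peaks, the strongest was taken. Strength is given as the summit value, the −log10 p that the authors' peak caller gave at the highest point of a peak. The start-site peaks had a median summit of 5.62, against 9.56 over the 14251 protein-coding genes with such a peak, whose lower quartile was 7.32 and upper quartile 11.5. Snai2 stood apart at 10.9, above 67.3% of those genes. The other 8 ran from 3.52 for Sox10 to 6.84 for Pax3, all below the lower quartile. A peak at the start site was by itself common, since 65.3% of 21829 protein-coding genes had one, as did 99.2% of the genes whose start lies in CpG-rich sequence and 36.4% of the rest. CpG-rich here means a GC content of at least 50% and an observed-to-expected CpG ratio of at least 0.6 within 500 bp of the start. Twist1, Prrx2, Alx4, Pax3 and Snai2 met this definition, and Sox10, Prrx1, Alx1 and Zeb2 did not. Over all genes the median start-site summit was 10.3 for CpG-rich and 7.30 for other starts. The 5 CpG-rich members, at 5.00 to 10.9, included 4 below the CpG-rich lower quartile of 8.42. The other 4 members, at 3.52 to 5.62, lay below the median of other starts. That median is close to the lower quartile of all genes, and the lower quartile of other starts alone is not given here.

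**Figure D1:**
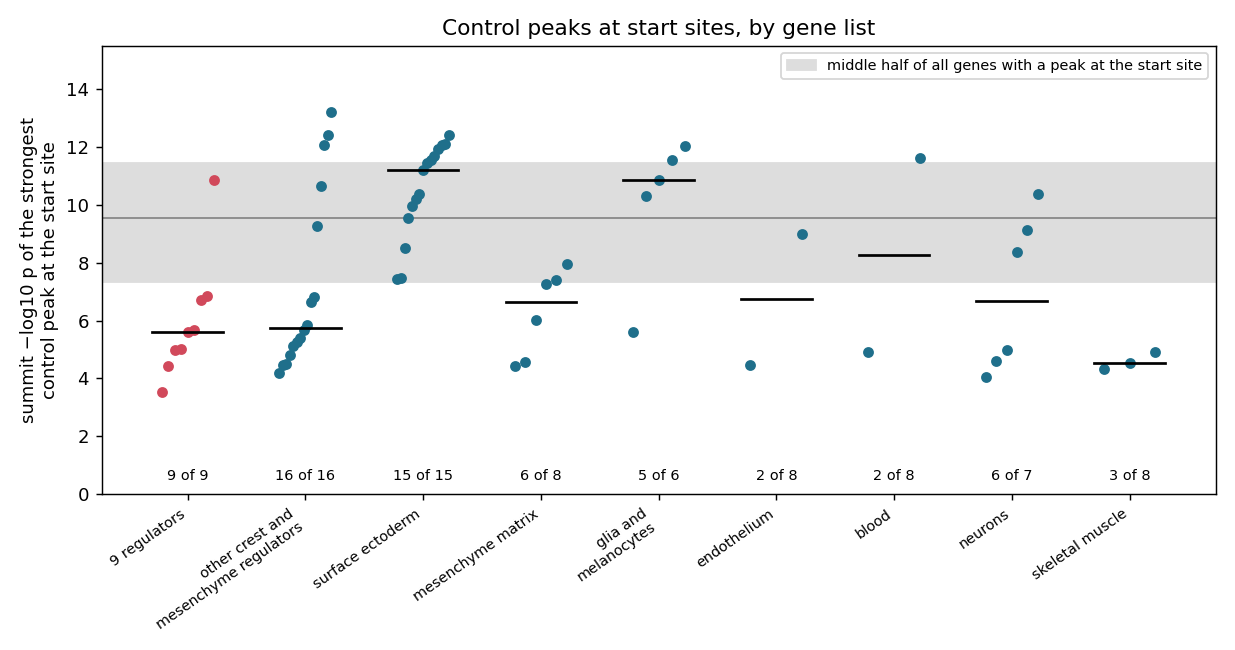
Summit −log10 p of the strongest control peak that overlaps the window of 1 kb on either side of the start site (vertical axis) for each gene of 9 lists (horizontal axis); points are genes, black lines list medians, the grey band and line the quartiles and median of all protein-coding genes with such a peak, and the counts give genes with a peak of genes in the list. The 9 regulators, in red, sit between 3.52 and 6.84 except Snai2 at 10.9, whereas the 15 surface ectoderm genes sit between 7.45 and 12.4.

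The order of the start-site summits was Snai2 at 10.9, Pax3 at 6.84, Alx4 at 6.70, Twist1 at 5.69, Alx1 at 5.62, Prrx1 at 5.00, Prrx2 also at 5.00, Zeb2 at 4.44 and Sox10 at 3.52. The Prrx1 peak only reached into the window, with its centre 1.41 kb from the start. Counting peaks by their centre instead, an alternative chosen after seeing the data, gave Prrx1 3.78, which puts it below Zeb2, and left the other 8 values as they were. With no value per library, it cannot be said which neighbours in this order differ beyond replicate spread. Width did not follow the same order. The Alx4 peak was the widest, at 2204 bp, followed by Snai2 at 1806 bp, Twist1 at 1623 bp and Alx1 at 1508 bp, whereas the Sox10 peak was 338 bp wide and the Zeb2 peak 420 bp. In bulk tissue, a few cells that are widely open and many cells that are weakly open cannot be told apart.

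Surface ectoderm genes, taken for comparison, had stronger peaks at their start sites. All 15 of 15 genes on that list, among them Cdh1 (E-cadherin), Epcam, Trp63 and the Grhl genes, had a start-site peak, with a median of 11.2 and a range of 7.45 to 12.4. The lowest of them lay above 8 of the 9 regulators, and 8 of the 15 lay above Snai2. A list of 16 other crest and mesenchyme regulators resembled the 9 genes more closely, since 16 of 16 had a peak, the median was 5.76, and 11 of 16 fell below the lower quartile of all genes. Their range was wide, from 4.17 for Barx1 to 13.2 for Six2, and 3 of them (Snai1, Ets1 and Six2) exceeded Snai2. Snai1, the paralogue of Snai2, reached 12.1, so both Snai genes stood above the median of all genes.

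Marker lists for the other cells that a dissected ectoderm could hold were read in the same way. Of 8 mesenchyme matrix genes, 6 had a start-site peak, with summits of 4.44 for Postn to 7.96 for Col1a1. Col3a1 and Lum had none, and Col3a1 had no control peak within 100 kb. Start-site peaks were found for 2 of 8 endothelial genes, with summits of 9.01 at Kdr and 4.48 at Sox17, and for 2 of 8 blood genes, with 11.6 at Klf1 and 4.91 at Tal1. Of the skeletal muscle genes 3 of 8 had one, Myod1 at 4.93, Myf6 at 4.32 and Des at 4.53. Of the neuronal genes 6 of 7 had one, with none at Stmn2, and the summits ran from 4.06 at Neurod1 to 10.4 at Neurog2. Start-site summits below the lower quartile of all genes were thus also seen in all 3 skeletal muscle peaks, in 3 of the 6 neuronal ones, in 4 of the 6 of the matrix genes and in 1 each of the endothelial, blood, and glial and melanocyte lists. The lists were not matched for CpG-rich starts. These made up 0 of 8 matrix, 1 of 8 muscle, 1 of 8 endothelial, 1 of 8 blood and 5 of 7 neuronal genes. They made up 3 of 6 glial and melanocyte genes, 6 of 15 surface ectoderm genes and 12 of 16 other crest and mesenchyme regulators. The glial and melanocyte list had 5 of 6, with none at Tyr. Its summits were 12.0 at Erbb3, 11.5 at Kit, 10.9 at Mitf, 10.3 at Pmel and 5.60 at Dct, so that 4 of the 5 lay above the median of all genes. A contribution of mesenchyme or crest derivatives to the peaks at the 9 genes was not tested.

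Most peaks around Sox10 and Prrx2 lay nearer to the start of another gene, and nearly all peaks around the other members were their own. The 9 genes had a median of 7 control peaks within 100 kb, against 8 over all protein-coding genes (quartiles 4 and 13), and ranged from 4 for Twist1 and Snai2 to 27 for Prrx2. For 49 of the 91 peaks the member gene had the nearest start site of any protein-coding gene, and these are called its own peaks here. The other 42 lay nearer to another gene, 9 of them within 1 kb of that gene's start. Sox10 has 7 and Prrx2 has 4 start sites of other protein-coding genes within 100 kb, against a median of 3 over all genes, and together they accounted for 45 peaks, of which 5 were their own. The other 7 genes had 46 peaks, of which 44 were their own.

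**Figure D2:**
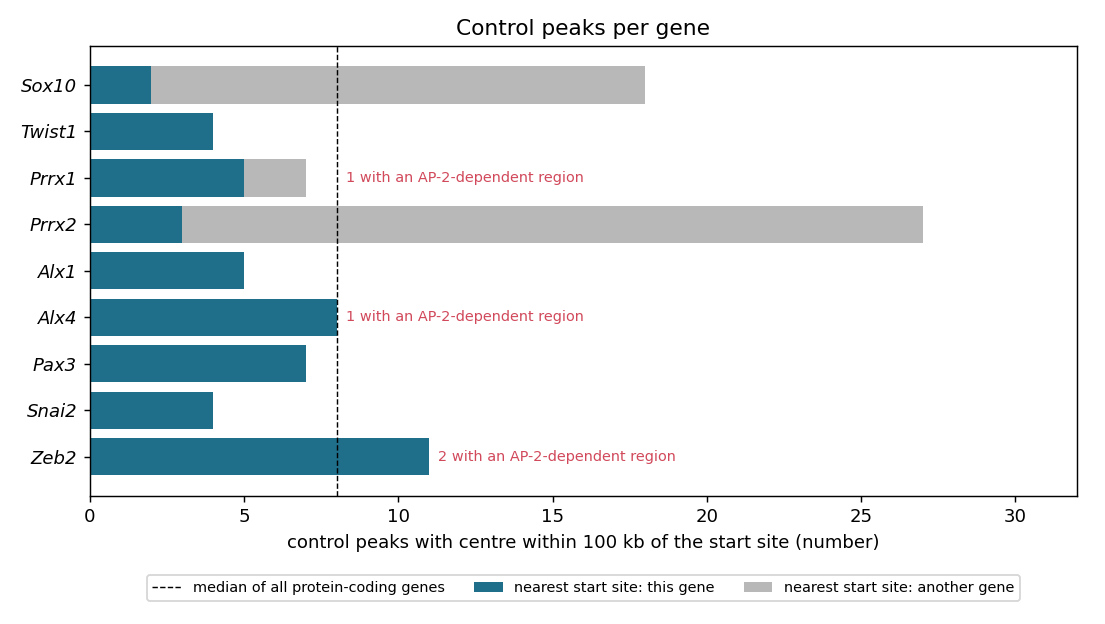
Number of control peaks with centre within 100 kb of each start site (horizontal axis), divided by whether the named gene or another gene has the nearest start site, with the number overlapping an AP-2-dependent region in red and the median of all genes as a dashed line. Sox10 with 18 peaks and Prrx2 with 27 peaks have the most, but only 2 and 3 of them are their own.

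Over all 91 peaks the median summit was 5.28 (95% interval 4.83 to 5.68, counting error only) and the range 3.01 to 13.1, against a median of 5.10 for all control peaks. The difference from other genes lay close to the start sites. Own peaks within 5 kb had a median summit of 4.87 (22 peaks), whereas all control peaks within 5 kb of a start had 7.65. Own peaks farther than 5 kb had a median of 4.97 (27 peaks), near the 4.66 of all such distal peaks. By position, 22 own peaks lay in introns, 21 of them in an intron of the member itself, 6 in exons and 21 between genes.

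**Figure D3:**
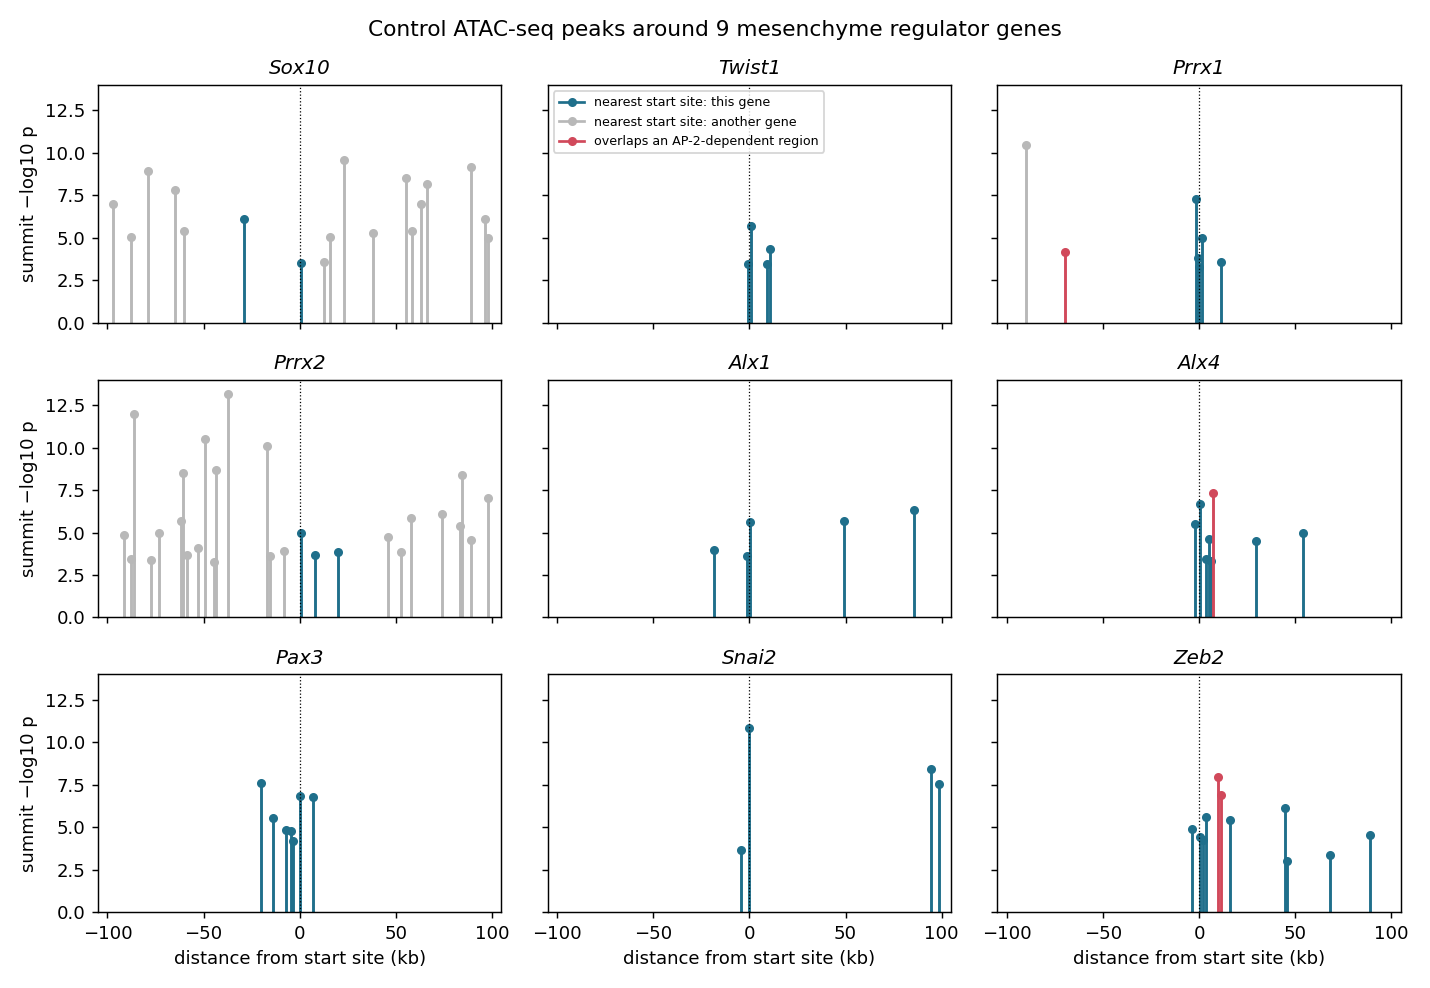
Control peaks around the 9 genes by distance of the peak centre from the start site in kb (horizontal axis, positive in the direction of transcription) and summit −log10 p (vertical axis); colour marks whether the named gene has the nearest start site and whether the peak overlaps an AP-2-dependent region. A region is overlapped by 4 peaks, 1 at Prrx1, 1 at Alx4 and 2 at Zeb2.

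Sox10, an HMG-box factor needed for crest-derived glia and melanocytes, had the lowest start-site summit of the group. The gene lies at chr15:79154913-79164490 on the minus strand. Its start-site peak, with a summit of 3.52 inside intron 1, ranked above 0.821% of the start-site peaks of all genes. Its other own peak, 28.9 kb upstream between genes, was 1068 bp wide with a summit of 6.13 and held an AP-2 string 11 bp from the summit. The strongest of the 18 peaks, at 9.60, stood at the start of the neighbour 1700088E04Rik. No AP-2-dependent region lay within 100 kb, and the closest was 227 kb upstream, nearer to Tmem184b.

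Pax3, a paired-box and homeobox factor of the neural plate border and crest, had 7 control peaks, all its own. It spans chr1:78101267-78196838 on the minus strand. Of the 7 peaks, 6 had their centre upstream of the start site. The largest was 2651 bp wide with a summit of 7.59, 20.2 kb upstream. The start-site peak had a summit of 6.84, and a peak in intron 4 had 6.77. The remaining 4, between 3.45 and 13.7 kb upstream, had summits from 4.18 to 5.56. None overlapped an AP-2-dependent region, although the start-site peak held an AP-2 string 68 bp from its summit. The closest region was 194 kb upstream and nearer to Sgpp2.

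Snai2 had few peaks, but 3 of its 4 had summits of 7.53 or more. The gene is at chr16:14705852-14709385 on the plus strand. The summit at the start site lay 23 bp before the start itself and ranked above 92.4% of all control peaks. A pair of peaks 94.6 and 98.9 kb downstream had summits of 8.41 and 7.53, and a small peak 4.31 kb upstream had 3.66. No region overlapped any of them. Between 225 and 238 kb downstream stood 3 AP-2-dependent regions, all nearer to Efcab1, with areas under the curve of 304, 850 and 628. The area under the curve is the caller's score that sums the −log10 p above its threshold along a peak.

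Zeb2, at chr2:44987123-45113279 on the minus strand, had 11 peaks, all its own, and 2 of the 4 regions. Its start-site peak had a summit of 4.44. The annotation gives 3 equally ranked principal transcripts that start at 45110288, 45113279 and 45117395, and the peaks over the outer pair were somewhat higher, at 5.63 (2426 bp wide) and 4.93 (1111 bp wide). The strongest peaks of the locus were neighbours in intron 2, 203 bp apart, with summits of 7.95 and 6.89, 10.1 and 11.1 kb downstream of the start. These are the peaks that overlap the regions. Another intron 2 peak at 6.14 lay 44.8 kb downstream, and 3 weaker ones between 45.9 and 88.7 kb had 3.01, 3.36 and 4.56, with no region.

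Twist1 lies at chr12:33957671-33959829 on the plus strand and had 4 peaks, all its own and all within 10.5 kb. The start-site peak ran over exon 1 with a summit of 5.69, 1 bp from the annotated start. The others had summits of 3.48, 3.44 and 4.33. The closest AP-2-dependent region was 1611 kb away.

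Prrx1, at chr1:163245119-163313710 on the minus strand, had 3 peaks that reached into its start window, with summits of 5.00, 3.27 and 3.78. The one at 5.00 had its summit 1347 bp downstream of the start, in intron 1, and the one at 3.27 lay over exon 1. A stronger peak, 7.30, stood 1.45 kb upstream, and a peak of 3.58 lay in intron 1, 11.4 kb downstream. The remaining pair lay nearer to Gorab, and the peak at the Gorab start, at 10.5, was the strongest within 100 kb. Prrx2, its paralogue, at chr2:30845059-30881251 on the plus strand, had 3 own peaks with summits of 5.00 at exon 1 and of 3.69 and 3.87 in intron 1. The strongest of the 27 peaks around it, 13.1, stood 37.1 kb upstream at Ntmt1.

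Alx1 and Alx4, aristaless-like genes of the frontonasal mesenchyme, had only own peaks, 5 and 8. Alx1, at chr10:103007847-103028777 on the minus strand, had summits of 5.62 over exon 1, 5.68 at 49.1 kb and 6.35 at 85.4 kb downstream, and of 3.62 and 3.99 upstream. The closest AP-2-dependent region was 989 kb away. Alx4, at chr2:93642384-93681339 on the plus strand, had a wide start-site peak at 6.70 and a stronger one in intron 1, 7.16 kb downstream, at 7.32. The other 6 had summits from 3.32 to 5.48, and the farthest, at 53.9 kb, lay in intron 13 of the neighbouring gene Ext2.

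AP-2-dependent regions were found near 3 of the 9 genes, against 20.2% of all protein-coding genes with one or more within 100 kb. Of the 91 control peaks, 4 overlapped a region by at least 1 bp, or 4.40% (95% Wilson interval 1.72 to 10.8%). The same share over all control peaks was 4.48%, which lies inside that interval, so no difference from the background was detectable at this number of peaks. The share depended on the setting. It was 1 of 91 (1.10%, against 2.87% of all) when the overlap had to cover 50% of both intervals. It was 0 of 60 (against 2.45% of all) when both lists were limited to areas under the curve from 500 up. Other settings gave 3 of 55 (5.45%) within 50 kb, 12 of 199 (6.03%) within 250 kb and 3 of 49 (6.12%) for own peaks. With start sites of all protein-coding transcripts it was 4 of 97 (4.12%). Among the distal own peaks, 3 of 27 overlapped a region, against 5.75% of all distal peaks. Of these 3, 2 were the neighbouring Zeb2 peaks, 203 bp apart. The shares and the Wilson interval above count them as separate peaks.

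The Alx4 region was 240 bp wide, 7.29 kb downstream of the start, with an area of 321 and a summit of 3.98 in the control-against-EDKO call, above 30.8% of all regions. It covered 38.0% of the strongest control peak of the locus, and the summits of both calls were at the same base, 1 bp from the centre of the AP-2 string. The Prrx1 region, 292 bp wide and 69.8 kb upstream, had an area of 240, above 14.5% of all regions, and a summit of 3.40, 63 bp from the summit of the control peak. It filled a control peak of the same bounds that ranked number 4 of the 7 at this gene, and its nearest start site was that of Gorab, 20.1 kb away. The Zeb2 regions were 390 and 306 bp wide and 585 bp apart, with areas of 410 and 417 and summits of 4.05 and 5.00. They covered 38.5% and 42.7% of the 2 strongest peaks of Zeb2, and their summits lay 1 and 12 bp from those of the control peaks. Repeat sequence made up 12.8% and 32.7% of them. All 4 areas were below 500, and of all regions 36.4% reached that value; the median area over all regions was 395.

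The share of peaks with a region was set beside that of the other gene lists. Around the surface ectoderm genes, 20 of 251 control peaks overlapped a region (7.97%, interval 5.22 to 12.0%), and 11 of the 15 genes had a region within 100 kb, with 4 each at Trp63 and Krt14. Among these genes are Tfap2c and Tfap2a, with 1 region each. Tfap2a is itself deleted in EDKO ectoderm, and whether its region touches the deleted exons was not tested. Around the 16 other crest and mesenchyme regulators, 1 of 167 peaks did (0.599%, interval 0.106 to 3.31%), near Sox8. None of 40 peaks around the matrix genes did, which allows a share of up to 8.76% at the upper Wilson bound. The interval for the 9 regulators overlapped those of all 3 lists. The lists were chosen with earlier results of these data known, so these shares are a description only. In the remaining lists the counts were 0 of 48 for glia and melanocytes, which allows up to 7.41% at the upper Wilson bound, 1 of 43 for endothelium, 1 of 88 for blood, 4 of 72 for neurons, all near Neurog1, and 2 of 87 for skeletal muscle, near Des and Ckm.

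**Figure D4:**
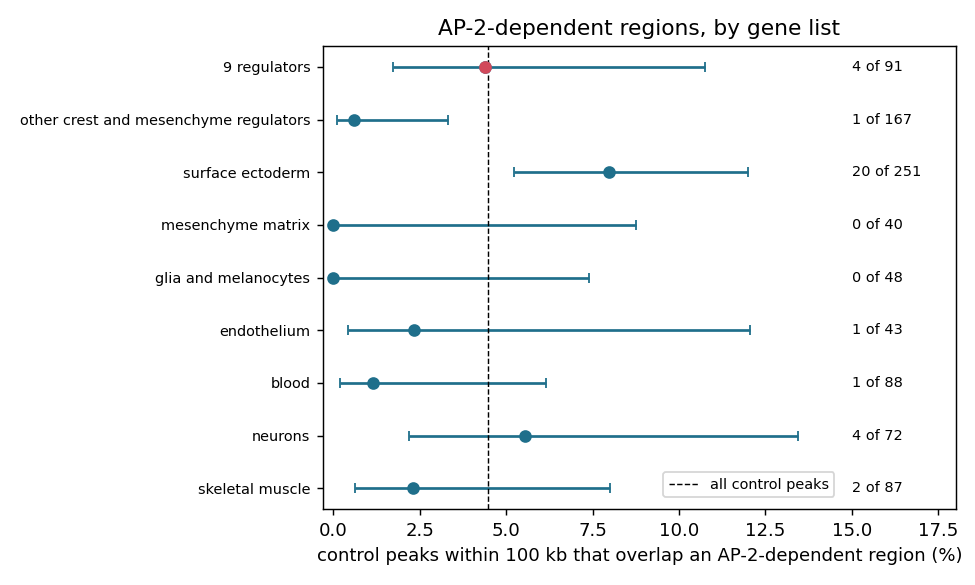
Share of control peaks within 100 kb of the genes of each list that overlap an AP-2-dependent region, in percent (horizontal axis), with 95% Wilson intervals, counts at the right and the share of all control peaks, 4.48%, as a dashed line. The 9 regulators, in red, lie at 4.40% on the dashed line, the ectoderm genes at 7.97% and the other crest and mesenchyme regulators at 0.599%.

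Strings of known factors were counted within 100 bp of the summits, on both strands. The AP-2 palindrome GCCNNNGGC occurred in 8 of 91 peaks (8.79%, interval 4.52 to 16.4%), against 14.4% of all control peaks. The direction of this difference turned with the setting, with 16.6% (interval 12.1 to 22.4%) for peaks within 250 kb, 34.1% (interval 25.2 to 44.3%) against 23.3% of all peaks for the string GCCNNNGGG, and 39.6% (interval 30.1 to 49.8%) against 32.4% over whole peaks. The share of all peaks lay outside the interval of the 91 peaks for GCCNNNGGG. The 8 peaks were spread over Sox10, Prrx1, Prrx2, Alx4 and Pax3, and 3 of them were own peaks. The strings in those at Sox10 and Pax3 are shown with 10 bases on each side, since neither peak was called as AP-2-dependent, in contrast to the Alx4 peak above. They are from the plus strand at chr15:79193253-79193281 and chr1:78196688-78196716.
Sox10, 28.9 kb upstream: agtggttccaGCCCTGGGCgggtggaaag
Pax3 start site: gggtaattctGCCCCGGGCcgggccgcat
The E-box CAGGTG occurred in 16 of 91 peaks (17.6%, against 19.7% of all), and the TEAD string GGAATG in 14 of 91 (15.4%, against 17.9%). The CTCF consensus was found in 6 of 91 (6.59%, against 6.21%). A consensus of the p53 family, which includes p63, was found in 3 of 91 (3.30%, interval 1.13 to 9.25%, against 8.68%). A palindromic dimer site of paired-type homeodomains such as those of Prrx and Alx proteins was found in 0 of 91 peaks, which allows a share of up to 4.05% at the upper Wilson bound, and in 0.178% of all. For GCCNNNGGC and these other strings within 100 bp of the summits, but not for GCCNNNGGG, the share of all peaks lay inside the interval of the 91 peaks. Within whole regions of 240 to 390 bp, the widths of the 4 regions here, GCCNNNGGC occurred in 26.9% and CAGGTG in 25.9% of 1489, beside 2 of 4 and 1 of 4.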

How the data were processed

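ATAC-seq was measured in 4 libraries, 2 control and 2 EDKO. The authors trimmed adapters with NGmerge, aligned to mm10 with bowtie2 and called peaks with Genrich 0.5 over the combined libraries of each call, without duplicates and chrM. The deposited values used are a score, the area under the curve, and the −log10 p at the summit, which the authors did not adjust for the number of positions. Combining libraries removes any replicate error, and the lists give no read counts behind a peak or per library.

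Peaks were joined to genes by their centres on GRCm38 with the principal transcripts of GENCODE mouse release 21 (21829 protein-coding genes, best APPRIS rank, then support level, then length). Start-site peaks were taken by overlap with the window of 1 kb on either side, not by centre. Scaffold peaks were counted but not joined. Strings were matched with pysam 0.24.0, and shares carry 95% Wilson intervals (scipy 1.17.1). Medians carry 95% order-statistic intervals. The counting scripts were tested on simulated data. The members and gene lists were chosen with earlier results of these data known. All 9 members were named, with peak number, start-site peak, strongest peak and regions, and genes of other lists where 5 or fewer were counted or as examples chosen after their values were seen. Distance limit, start window, area minimum, overlap, string and window were varied. Regions more open in EDKO embryos were not analysed here. Some genes of the comparison lists are not reported here and were left out of every count over those lists.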

Additional observations from a re-analysis of the deposited data

How the results depend on the processing

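For 6 results, 33 alternative values were computed under 11 settings, 1 of them chosen after seeing the data, of which 21 stayed close to the value given and 12 moved. Close means within 1.5 times for a count, and inside the 95% interval of the value given for a share or median. The number of control peaks was 60 with an area of at least 500, 199 within 250 kb, 55 within 50 kb, and 49 when the member had to be the nearest start. The number of AP-2-dependent regions was 0 with an area of at least 500 and 12 within 250 kb. The share of peaks with a region was 0% with that area minimum, against 2.45% of all control peaks, and 1.10% with a reciprocal overlap of 50%, against 2.87% of all. The median summit was 6.14 with the area minimum. The share of peaks with an AP-2 string was 16.6% within 250 kb, 39.6% over whole peaks and 34.1% with GCCNNNGGG, each above the share of all peaks, and the cause was not tested. The number of members with a start-site peak stayed at 8 or 9, and at 9 with start-site peaks taken by their centre.

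No paired analysis was possible because both calls merged their libraries, which also kept any library from being left out. The absence of read counts per peak and of replicate values limits all of these statements to the 2 lists as called.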
